A study of Homo sapiens with 12 samples.

Results

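The caveolin and cavin genes CAV1, CAV2, CAVIN1, CAVIN2 and CAVIN3 were followed across 12 RNA-seq libraries of 2 triple-negative breast cancer cell lines, as 5 of the 57500 genes in the deposited count table. They were taken by gene symbol, and each symbol had 1 Ensembl gene. The group was chosen by measured values of these same libraries: CAVIN2 was among the largest falls after PACT depletion in HCC1806, and CAV1 had one of the largest differences in that effect between the lines. Values of the 5 genes in those 2 comparisons are therefore given as a description and not as a test.

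HCC1806 and MDA-MB-468 are established epithelial cell lines from breast tumours that lack hormone receptors and HER2 amplification. PACT, the double-stranded RNA binding protein encoded by PRKRA, was targeted by CRISPR-Cas9 with the guide sgPACT-2 in both lines, and the study's title concerns the control of the kinase PKR by PACT. Control cells carried sgC1 in HCC1806 and sgNTA in MDA-MB-468, so the control guide and the line cannot be told apart in a comparison of control cells. Each of the 4 groups had 3 libraries of rRNA-depleted total RNA. The labels do not say whether the cells were pools or clones, or how long after guide delivery they were taken. They also do not say whether replicates came from separate cultures. The p-values therefore measure the spread between these libraries, estimated over both lines together although it was larger in HCC1806.

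Caveolae are small flask-shaped pits of the plasma membrane. Caveolin-1, from CAV1, is the integral membrane protein that forms them in most non-muscle cells, and caveolin-2, from CAV2, assembles with it. The cavins form a coat on the cytoplasmic face: cavin-1 is needed for the pit to form, and cavin-2 and cavin-3 are partners that bind cavin-1 and shape or regulate the coat. Caveolae act as a membrane reserve under stretch, take part in endocytosis and lipid handling, and are abundant in endothelial cells, adipocytes, fibroblasts and basal epithelial cells.

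Library totals ranged from 18640633 to 24704877 counts for HCC1806, and from 34581754 to 44790741 counts for MDA-MB-468. PRKRA, the target, measured 78.6, 82.6 and 72.1 CPM (counts scaled to library size with TMM factors) in HCC1806 control libraries and 37.5, 36.1 and 37.3 CPM in depleted ones. In MDA-MB-468 it measured 41.1, 45.9 and 46.9 CPM against 39.2, 35.5 and 41.6 CPM. Its log2 fold change there was -0.20, with an adjusted p of 0.958 by edgeR's quasi-likelihood test. PRKRA mRNA was thus not called lower there, and groups of that line are named by their labels. These libraries do not measure PACT protein, so its loss in either line cannot be read from PRKRA mRNA. The epithelial markers EPCAM, CDH1, KRT8, KRT18 and KRT5 were all above 1 CPM in both lines, and the leukocyte markers PTPRC, CD3E and LYZ summed to at most 0.585 CPM in any library. Replicate 1 of the depleted HCC1806 cells stood apart: without it, 1792 rather than 672 genes were called changed in HCC1806, and the HCC1806 values of the 5 genes are given with and without it.

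By annotation (GENCODE 29, GRCh38), CAV2 (ENSG00000105971, chr7:116287380-116508541, plus strand) and CAV1 (ENSG00000105974, chr7:116524785-116561184, plus strand) lie side by side on chromosome 7. CAVIN1 (ENSG00000177469, chr17:42402452-42423517), CAVIN2 (ENSG00000168497, chr2:191834302-191847255) and CAVIN3 (ENSG00000170955, chr11:6318946-6320647) are on the minus strands of 3 other chromosomes. All are protein-coding. The long CAV2 interval comes from an upstream transcript. RefSeq start sites of CAV2 and CAV1 lie 24963 to 26624 bases apart.

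RefSeq promoter windows (GRCh38.p14, 250 bases before to 50 after a start site) were on hand for 3 of the 5 genes, 3 for CAV1, 2 for CAV2 and 1 for CAVIN2; CAVIN1 and CAVIN3 had no entry. The stretches below are shown because they set the 2 caveolin starts apart from the CAVIN2 start. They run 5′ to 3′ on the gene's own strand, with the named motif in capitals. The CAV2 stretch at 167 to 162 bases also holds a GC box 157 to 152 bases before the same start, left in lower case.
CAV1, GC box 92 to 87 bases before a start: caaacctttggcGGGCGGccaggaggctcc
CAV1, GC box on the other strand, 64 to 59 bases before that start: ccctcccagccaCCGCCCccctccagcgcc
CAV2, GC box 49 to 44 bases before a start: cgaggcgaggggGGGCGGggccgggcgcta
CAV2, GC box 167 to 162 bases before that start: ggcgggggaggtGGGCGGggaggggcggcg
CAVIN2, TEAD motif 16 to 11 bases before its start: ttaagagcagctGGAATGcagttcccctga

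The CAV1 stretches are chr7:116524905-116524934 and chr7:116524933-116524962, the CAV2 stretches chr7:116499677-116499706 and chr7:116499559-116499588, and the CAVIN2 stretch chr2:191847087-191847116, minus strand. Both strands were searched. The GC box, GGGCGG, matched 3, 3 and 2 times in the CAV1 windows and 6 and 4 times in the CAV2 windows, and had 0 matches in the CAVIN2 window; 45.0% of the 35116 RefSeq windows of this length hold it. The TEAD motif, GGAATG, matched once in the CAVIN2 window and in none of the caveolin windows, against 14.0% of all windows. AP-1 (TGANTCA, in 7.71% of windows), the C/EBP-ATF response element (TGATGNAA, 3.62%) and the CArG box (1.29%) had 0 matches in the 6 windows. CAV1 windows of the first pair of starts overlap and share their GC boxes. These matches describe letters in short windows and carry no measurement of binding.

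Per kb of annotated exon, CAV1 was the most abundant of the 5 mRNAs in HCC1806 and lay close to CAV2 and CAVIN1 in MDA-MB-468. The length counts all annotated exons, 6926 bases for CAV2 and 4082 for CAV1, whether or not these cells use them. Levels set beside each other across genes depend on it. In CPM per kb, CAV1 measured 162 ± 16.5 in HCC1806 control cells (SD, n = 3), which ranked 97 among 26862 tested genes with a length. CAV2 followed with 32.2 and CAVIN1 with 29.6 CPM per kb, then CAVIN3 with 9.58 and CAVIN2 with 2.86. The CAV2 and CAVIN1 levels of single HCC1806 control libraries overlapped, so their order is not settled, while CAV1, CAVIN3 and CAVIN2 each stood clear of their neighbours. In MDA-MB-468 control cells the levels were 21.2 CPM per kb for CAV2, 20.1 for CAVIN1 and 18.0 for CAV1, CAVIN2 was at 0.00314 and CAVIN3 at 0. There the libraries of neighbouring genes in that order overlapped (CAV2 with CAVIN1, CAVIN1 with CAV1), apart from the step down to CAVIN2. With sgPACT-2 the levels were 97.2, 24.8, 21.9, 8.22 and 1.32 CPM per kb in HCC1806, for CAV1, CAVIN1, CAV2, CAVIN3 and CAVIN2 in turn, and 22.5, 21.1 and 20.0 in MDA-MB-468 for CAV2, CAVIN1 and CAV1.

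The make-up of the family therefore differed between the lines. CAV1 formed 60.9% to 71.5% of the summed per-kb level of the 5 genes in the 6 HCC1806 libraries and 29.8% to 32.2% in the 6 MDA-MB-468 libraries. The ratio of CAV1 to CAV2 per kb was 4.05, 5.36 and 6.07 in HCC1806 control libraries and 5.03, 4.30 and 3.99 in depleted ones. In MDA-MB-468 it ran from 0.820 to 0.926, below every HCC1806 library. In HCC1806 the depleted and control ratios overlapped.

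**Figure D1:**
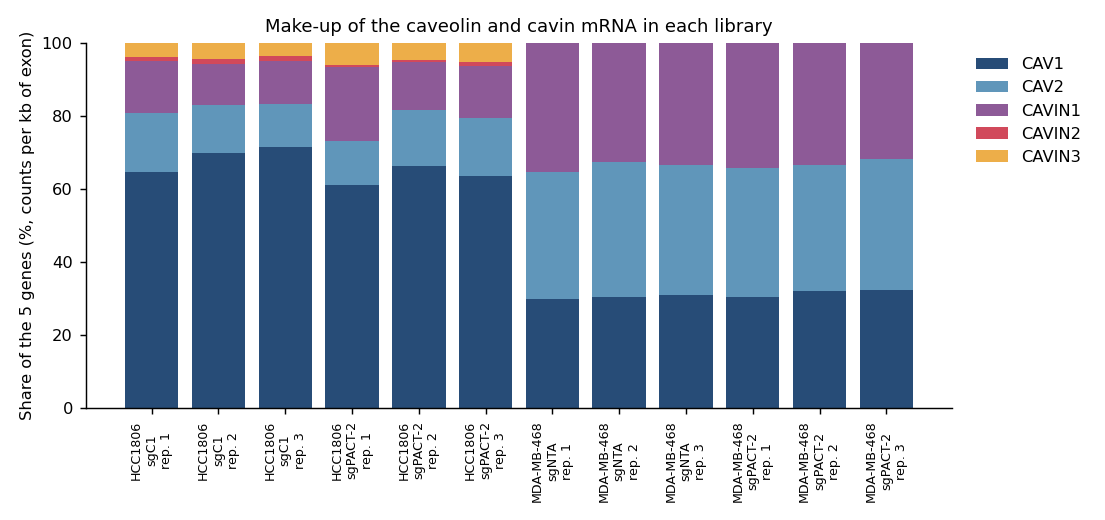
Stacked bars give, for each of the 12 libraries, the share of each gene in the summed counts per kb of exon of the 5 caveolin and cavin genes, in percent. CAV1 takes 60.9% to 71.5% in the HCC1806 bars, and 29.8% to 32.2% in those of MDA-MB-468, where CAVIN2 and CAVIN3 are too low to be seen.

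The first comparison asked how each gene differed between the lines. The choice of genes was not made on this difference, but it used the same libraries, so the p-values below are not independent of it. For CAV1, the value it was selected on equals the line difference with control guides minus that with sgPACT-2. CAV1 was higher in HCC1806, with 667.9, 591.2 and 725.6 CPM in control libraries against 75.2, 68.7 and 76.4 CPM in MDA-MB-468. No library of one line reached the other. The log2 difference was 3.17 (SE 0.12), a 9.01-fold higher level, with an adjusted p of 3.3e-13 by edgeR's quasi-likelihood test with Benjamini-Hochberg adjustment. With sgPACT-2 in both lines the difference was 2.28 (SE 0.12, adjusted p 1.4e-11 by edgeR), or 4.86-fold.

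CAVIN2 and CAVIN3 were measured in HCC1806 and lay at or near 0 counts in MDA-MB-468. CAVIN2 had 200, 210 and 236 counts in HCC1806 control libraries, and 0, 1 and 0 counts in MDA-MB-468 control libraries. The ratio of the summed counts, 646 against 1, corrected for library size, was 1005, with an exact 95% interval of 180 to 39768 for counting error only. With sgPACT-2 it was 319 against 2 counts, a ratio of 219 (60.1 to 1816). CAVIN3 had 411, 343 and 368 counts in HCC1806 control libraries and 0 in all 6 MDA-MB-468 libraries. Against a floor of 3 counts over the group, 0.0276 CPM, CAVIN3 was at least 582-fold higher in HCC1806 with the control guides, and at least 451-fold higher with sgPACT-2. Both genes passed the filter on low counts only through HCC1806, so their difference is given by size and not by a test.

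CAV2 and CAVIN1 differed less between the lines. With control guides CAV2 measured 280.0, 187.2 and 202.7 CPM in HCC1806 and 148.8, 142.1 and 148.8 CPM in MDA-MB-468, which differed by 0.61 on the log2 scale (SE 0.13, adjusted p 5.8e-04 by edgeR). Without replicate 1 of HCC1806 sgC1 that difference was 0.39 (adjusted p 0.00352 by edgeR), and with the filter at a mean of 50 counts it was 0.92. CAVIN1 measured 138.5, 89.8 and 111.9 CPM against 83.8, 69.3 and 77.7 CPM, a difference of 0.56 (SE 0.20, adjusted p 0.0203 by edgeR). All 3 HCC1806 control libraries were above all 3 of MDA-MB-468 for both genes. The share of all tested genes with such separation between the lines was not counted, so nothing is read from it here or for CAV1. With sgPACT-2 in both lines the difference was -0.04 (SE 0.13, adjusted p 0.802 by edgeR) for CAV2 and 0.23 (SE 0.20, adjusted p 0.306 by edgeR) for CAVIN1.

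Of the 3 genes detected in both lines, 3 were called higher in HCC1806 with the control guides and 0 lower, where 40.1% of the 27029 tested genes were called higher and 34.2% lower. With sgPACT-2 the count was 1 of 3 higher, CAV1, and 0 lower, against 40.6% and 34.1% of all tested genes. Calls of this kind are thus common. The CAV1 difference exceeded that of 86.3% of tested genes with control guides and 79.6% with sgPACT-2, so differences of its size between the lines are common as well. The small differences of CAV2 and CAVIN1 also moved with the scaling. For 15918 genes that averaged 50 counts or more, the median difference was -0.30 with control guides and -0.31 with sgPACT-2 under TMM scaling, and -0.05 and 0.01 by library size alone. By library size alone, CAV2 with sgPACT-2 was 0.29 higher in HCC1806 (adjusted p 0.0274 by edgeR) and CAVIN1 0.55 higher (adjusted p 0.0109), so the sign for CAV2 and both calls turned with that choice. The CAVIN1 call with control guides was lost without replicate 1 of HCC1806 sgC1 (0.37, adjusted p 0.127 by edgeR) or without replicate 2 of MDA-MB-468 sgNTA (0.48, adjusted p 0.0788).

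The second comparison asked how the genes moved in HCC1806 after PACT depletion, the contrast on which they were selected. CAV1 went from 661.6 ± 67.4 CPM in control to 396.7 ± 47.6 CPM in depleted cells (SD, n = 3 each), with 442.3, 400.6 and 347.3 CPM in the depleted libraries. Every depleted library lay below every control. Its log2 fold change was -0.74 (SE 0.11). CAV2 measured 149.1, 157.9 and 147.6 CPM in depleted libraries, also below every control, and its log2 fold change was -0.56 (SE 0.13). The high control replicate 1, 280.0 CPM, carried part of that value: without it the change was -0.37.

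Among the coat genes, CAVIN2 had the lowest value, with 8.34, 9.40 and 10.0 CPM in control libraries and 4.51, 3.25 and 5.07 CPM in depleted ones. The groups did not overlap, and the log2 fold change was -1.11 (SE 0.25) on 75 to 236 counts a library. CAVIN1, the coat gene that caveolae cannot form without, measured 137.3, 73.9 and 73.4 CPM in depleted libraries, overlapping the controls, and its log2 fold change was -0.26 (SE 0.20). CAVIN3 measured 17.1, 15.4 and 15.6 CPM in control and 17.8, 11.5 and 11.9 CPM in depleted libraries, a change of -0.23 (SE 0.20), again with overlap. For CAVIN1 and CAVIN3, replicate 1 was the highest library of its group in both control and depleted cells.

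Without depleted replicate 1, the log2 fold changes in HCC1806 were -0.82 for CAV1, -0.55 for CAV2, -0.62 for CAVIN1, -1.14 for CAVIN2 and -0.46 for CAVIN3. With that library they span -0.23 to -1.11, and all 5 estimates were negative either way. Other libraries moved CAVIN1 and CAVIN3 toward 0. CAVIN1 was at -0.10 without control replicate 1 and at -0.11 without depleted replicate 2 or without depleted replicate 3. CAVIN3 was at -0.12 without depleted replicate 2 and at -0.13 without depleted replicate 3. In the model of all 12 libraries 3 of the 5 genes were called lower, CAV1, CAV2 and CAVIN2, and 0 higher; over all tested genes 1.32% were called lower and 1.16% higher. Nothing is read from this count, since the genes were chosen on the contrast. The same 3 genes had depleted libraries all below the controls, an arrangement shown by 8.17% of tested genes. With HCC1806 fitted on its own 6 libraries, 0 of 5 were called, where 74 genes were called in all. Without depleted replicate 1 the count was 4, with CAVIN1 added, where 1792 genes were called in all.

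**Figure D2:**
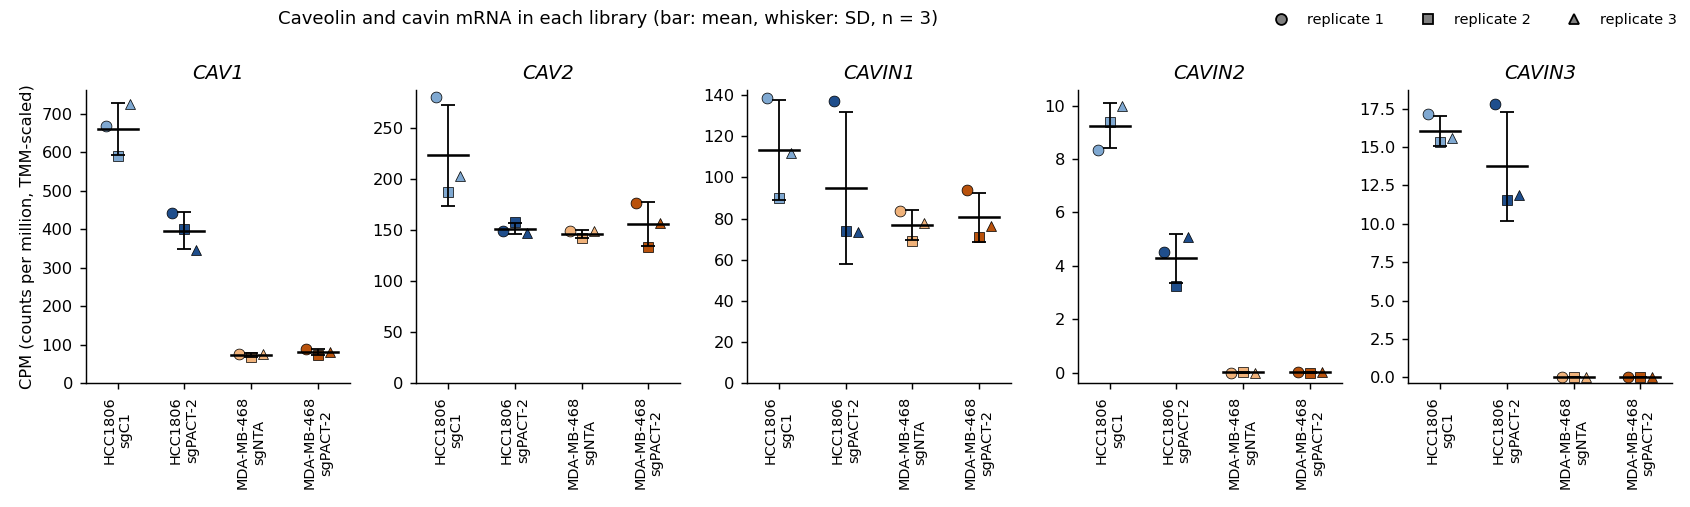
Points show the TMM-scaled CPM of each gene in each library by group, with symbols for replicate number, a bar at the mean and whiskers of 1 SD (n = 3); each panel has its own axis. In HCC1806 the depleted libraries of CAV1, CAV2 and CAVIN2 lie below all controls, those of CAVIN1 and CAVIN3 overlap them, and CAVIN2 and CAVIN3 lie at or near 0 in MDA-MB-468.

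The third comparison set sgPACT-2 against sgNTA in MDA-MB-468, where PRKRA mRNA was not called lower. CAV2 measured 176.4, 133.3 and 157.0 CPM in sgPACT-2 libraries and CAVIN1 94.1, 71.3 and 76.4 CPM. Both overlapped their controls, and the log2 fold changes of 0.09 (SE 0.13) for CAV2 and 0.07 (SE 0.20) for CAVIN1 had an adjusted p of 1 by edgeR's quasi-likelihood test. CAV1, whose value here belongs to the choice, measured 89.3, 72.8 and 82.7 CPM, a change of 0.15 (SE 0.11). CAVIN2 had 1, 0 and 1 counts with sgPACT-2 and CAVIN3 had 0, so no fold is given for either. Of the 3 detected genes 0 were called in either direction by edgeR, and 0 had an unadjusted p under 0.05, where 0.17% of tested genes were called higher and 0% lower, and 0 were called by DESeq2.

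The difference between the changes with sgPACT-2, MDA-MB-468 minus HCC1806, was 0.89 (SE 0.16) for CAV1, 0.65 (SE 0.19) for CAV2 and 0.33 (SE 0.29) for CAVIN1. CAV1 was the 1 gene of the 3 past the threshold, as 0.122% of all tested genes were, and it had been selected on this value. The CAV2 and CAVIN1 differences were not past it in the model of all 12 libraries. With no filter on low counts CAV2 was past it, where 275 rather than 33 genes were called in all. Nothing is read from these calls, since the group was chosen on this comparison. PRKRA itself differed between the lines by 0.87 (adjusted p 0.0198 by edgeR), so the values set a line with lower PRKRA mRNA beside one in which it was not called. Without HCC1806 depleted replicate 1 the CAV1, CAV2 and CAVIN1 differences were 0.99, 0.65 and 0.70.

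**Figure D3:**
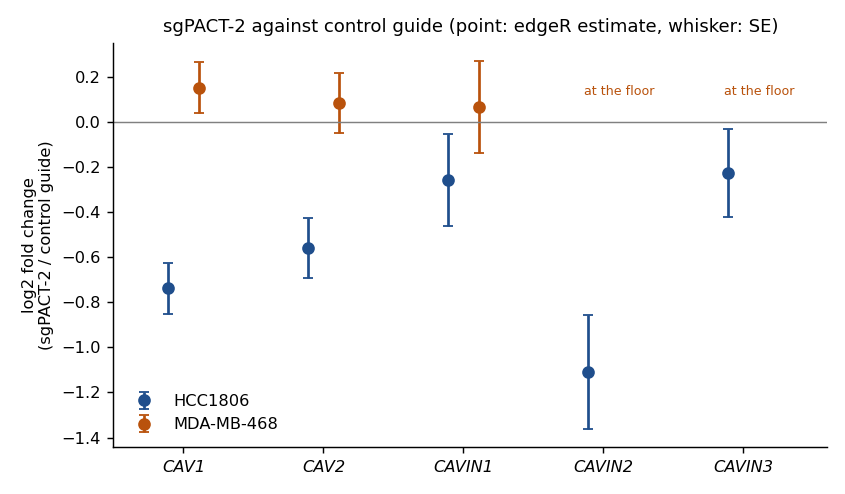
Points give the edgeR log2 fold change, sgPACT-2 over control guide, with whiskers of 1 SE, for each gene in HCC1806 (blue) and MDA-MB-468 (orange). CAVIN2 and CAVIN3 have no value in MDA-MB-468, where their counts were at the floor; HCC1806 values are negative for all 5 genes and the values drawn for MDA-MB-468 are 0.15 or less.

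Of the 5 epithelial markers, 3 were called lower in the same depleted HCC1806 libraries, where 1.32% of all tested genes were called lower. These markers were picked for the text after their values were seen. KRT5, the basal keratin, measured 616.0, 748.3 and 935.5 CPM in control and 321.5, 370.0 and 525.6 CPM in depleted libraries. KRT5 fell by 0.92 on the log2 scale (adjusted p 0.0106 by edgeR), and EPCAM and CDH1 were also called lower at -0.55 and -0.38. The luminal keratins KRT8 (-0.36, adjusted p 0.237 by edgeR) and KRT18 (-0.06, adjusted p 0.946) were not called. The 5 epithelial markers summed to 1845 to 2262 CPM in control and 1252 to 1576 CPM in depleted libraries. In MDA-MB-468 the sums, 3292 to 3536 and 2953 to 3587 CPM, overlapped. The other cells in which caveolae are abundant left few reads: the endothelial markers summed to at most 4.02 CPM and the adipocyte markers to at most 3.07 CPM. The fibroblast markers, mostly COL1A1, summed to 30.5 to 44.6 CPM in HCC1806 control and 39.8 to 52.5 CPM in depleted libraries. The part of these markers in the caveolin and cavin values was not tested. In bulk RNA, fewer cells of a type and less RNA per cell cannot be told apart.

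Reads of overlapping genes could enter the counts, because the strand setting is not given in the sources used here. The antisense gene AC098617.1 shares 233 exon bases with CAVIN2 and had 3, 0 and 5 counts in HCC1806 control and 17, 26 and 49 in depleted libraries. Its depleted libraries were all above the controls, while those of CAVIN2 were all below; its log2 fold change was 3.36 (adjusted p 0.0695 by edgeR) and not called. AC006159.1, antisense to CAV1, shares 0 exon bases with it and had 6.59, 8.10 and 14.0 CPM in HCC1806 control and 7.89, 6.37 and 9.78 CPM in depleted libraries, a small amount beside CAV1. AC002066.1 shares 76 exon bases with CAV2 and had at most 69 counts in any library, and AC068733.3 shares 557 with CAVIN3 and had at most 10.

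The genes beside each caveolin and cavin gene were examined because PRKRA and CAVIN2 share a chromosome arm. CAVIN2 was the lowest in HCC1806 of 109 genes with enough counts that start between 170 and 200 Mb on chromosome 2. Those limits were set earlier on these data. CAVIN2 was chosen as a large fall in this contrast, so its low rank follows from the choice. The other 108 had a median log2 fold change of -0.31, with quartiles -0.47 and -0.03, and PRKRA followed at -1.07. Over all 15918 genes that averaged 50 counts or more the median was -0.03. Among the nearest tested protein-coding neighbours of CAVIN2, NABP1, a single-stranded DNA binding protein, was called lower at -0.63 (SE 0.09). SLC39A10, a zinc importer, was called lower at -0.62 (SE 0.16). STAT4 (-0.38), TMEFF2 (0.49) and DNAH7 (1.15) were not called and had few counts.

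Beside CAV1 and CAV2, MET, the receptor of hepatocyte growth factor, was at -0.42 (SE 0.13, adjusted p 0.107 by edgeR), TFEC at -0.55, CAPZA2 at -0.29, MDFIC at -0.28, ST7 at -0.13 and TES, a focal adhesion protein, at 0.15 in HCC1806. None of these 6 was called there. CAVIN1 lies among STAT3, STAT5A, STAT5B, ATP6V0A1, NAGLU and HSD17B1, and CAVIN3 among FAM160A2, C11orf42, CNGA4, SMPD1, APBB1 and HPX. Of these 12, 0 were called in HCC1806 by edgeR. In MDA-MB-468 none of the neighbours named here was called.

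**Figure D4:**
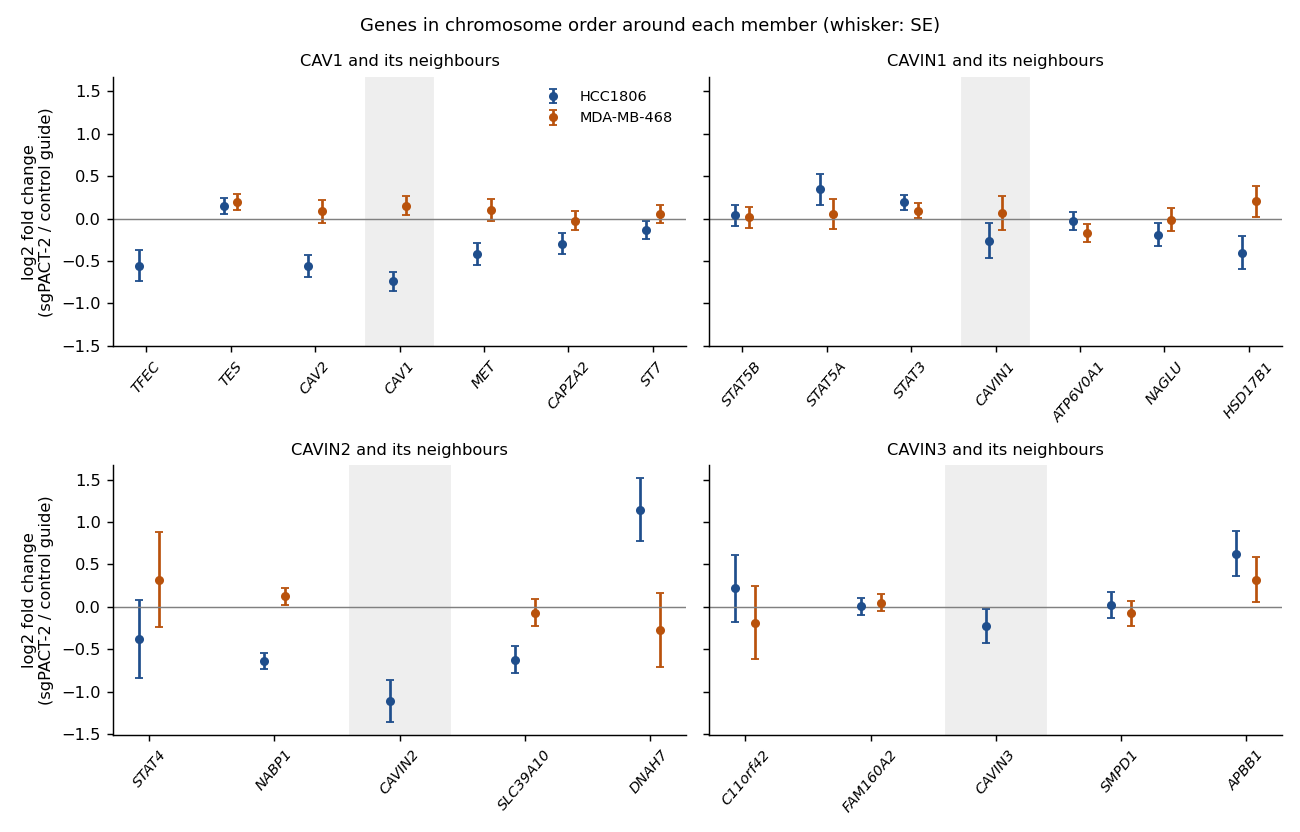
Each panel places a gene (shaded) among its nearest tested protein-coding genes, up to 3 on either side, in chromosome order and not to scale, with edgeR log2 fold changes and 1 SE whiskers in HCC1806 (blue) and MDA-MB-468 (orange). Genes with under 50 counts in every library, and MDA-MB-468 values under 0.1 CPM, are not drawn; around CAVIN2 the HCC1806 values of NABP1 and SLC39A10 are -0.63 and -0.62.

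Other parts of the caveolar system, from lists written with earlier results of these data known, were mostly not called. Of 10 genes of the caveola machinery (the muscle forms CAV3 and CAVIN4, the EHD ATPases, the PACSIN membrane benders and ROR1, a scaffold for caveolin and cavin-1), 0 rose and 0 fell in HCC1806 by edgeR, with 3 at an unadjusted p under 0.05 and 1 called by DESeq2. Over all tested genes 1.16% were called higher and 1.32% lower by edgeR, and 3909 of 27029 had an unadjusted p under 0.05. DESeq2 called 1245 genes in all. The median of the 10 was 0.15, against 0.01 over all tested genes. EHD2, the ATPase at the neck of caveolae, measured 205.6, 197.0 and 202.5 CPM in control and 168.6, 161.7 and 148.1 CPM in depleted libraries, with no overlap. Its log2 fold change was -0.34 (SE 0.10), with an adjusted p of 0.0822 by edgeR, and it was the gene called by DESeq2. With the replicate number as a block it was called too (adjusted p 0.0167 by edgeR), as was PACSIN1 (0.0430). PACSIN1 (-0.48), PACSIN3 (-0.24) and CAV3 (0.94) followed in order of adjusted p and were not called. In MDA-MB-468 0 of 10 were called, with a median of 0.02 against -0.01 over all tested genes.

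EHD2, like CAV1, was higher in HCC1806. It measured 7.44, 7.30 and 8.61 CPM in MDA-MB-468 control libraries, and the log2 difference, HCC1806 minus MDA-MB-468, was 4.69 (SE 0.12, adjusted p 1.9e-15 by edgeR). EHD3 was also called higher in HCC1806 (1.77), while ROR1 (-4.06), EHD1 (-2.14), PACSIN2 (-1.31) and PACSIN1 (-0.49) were called lower. Over the list 2 of 10 were called higher and 4 lower with control guides, beside 40.1% and 34.2% of all tested genes.

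Among 14 caveola partners and regulators of internalisation, 1 rose and 0 fell in HCC1806, beside 1.16% and 1.32% of all tested genes. FYN, a kinase that phosphorylates caveolin-1, rose from 1.08, 1.57 and 1.23 CPM to 4.70, 5.33 and 6.24 CPM, by 2.07 on the log2 scale (SE 0.22, adjusted p 4.4e-05 by edgeR). It remained called in all 12 fits that left out a library and with HCC1806 alone. In MDA-MB-468 its change was 0.35 (SE 0.17, adjusted p 0.958 by edgeR). The medians of the list were -0.05 and 0.00.

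Of 10 raft proteins other than caveolins, 8 were tested and 1 fell in HCC1806: STOM, stomatin, from 19.1, 22.3 and 16.8 CPM to 11.8, 15.0 and 10.2 CPM, or -0.66 on the log2 scale (SE 0.14, adjusted p 0.0182 by edgeR). Over all tested genes 1.32% were called lower. The STOM call was lost with HCC1806 alone (adjusted p 0.205 by edgeR). With the replicate block 4 of 8 were called lower there, STOM, FLOT2, MAL2 and CD59, and 1947 rather than 672 of the 27029 tested genes were called in either direction. DESeq2 called 3 of 8, STOM, MAL2 and FLOT2, and 1245 genes in all. In the model of all 12 libraries MAL2 (-0.35), FLOT2 (-0.34) and STOML1 (0.42) were not called. The median of the 8 was -0.32 in HCC1806. In MDA-MB-468 it was -0.04, and 0 of 8 were called.

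YAP and TAZ are coactivators of transcription that respond to membrane and cytoskeletal tension, as caveolae do, and bind DNA through the TEAD factors. Of 22 YAP and TAZ target genes, 1 rose and 2 fell in HCC1806 by edgeR, where 1.16% of all tested genes were called higher and 1.32% lower. GADD45A, a stress and growth arrest gene, rose (1.17, SE 0.20), and CCDC80 (-0.69, SE 0.16) and MYOF, a membrane repair ferlin (-0.36, SE 0.09), fell. None of these 3 was called with HCC1806 alone, where 74 genes were called in all. In MDA-MB-468 2 rose, GADD45A (1.10, SE 0.19, adjusted p 0.0216 by edgeR) and NUAK2 (0.80, SE 0.15, adjusted p 0.0307), and 0 fell, where 0.17% of all tested genes were called higher. With MDA-MB-468 alone 3 were called higher, ANKRD1 added (0.95, adjusted p 1.3e-05 by edgeR), where 323 genes were called in all. The medians were -0.02 and 0.14. Leaving out a library brought the HCC1806 count to between 1 and 8, and that of MDA-MB-468 to between 0 and 2; with the replicate block the HCC1806 count was 7, where 1947 genes were called in all. Of the 9 YAP, TEAD and SRF factors themselves, 0 were called in either line by edgeR, with 1 at an unadjusted p under 0.05 in HCC1806; MRTFA (0.33), TEAD2 (-0.21), TEAD1 (0.11) and YAP1 (0.09) had the smallest adjusted p there.

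**Figure D5:**
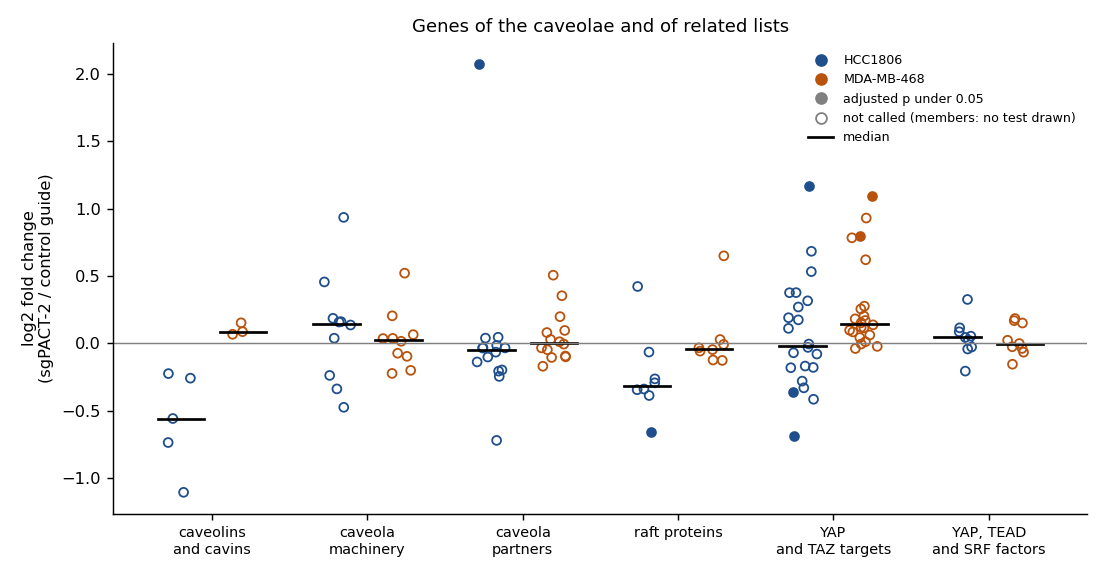
Each circle is the edgeR log2 fold change of 1 gene, sgPACT-2 over control guide, in HCC1806 (blue) and MDA-MB-468 (orange), by gene list; filled circles passed an adjusted p of 0.05, bars are medians, and for the caveolins and cavins no test is drawn. FYN (2.07) stands alone among the partners, and the machinery has a median of 0.15 in HCC1806, with genes from -0.48 to 0.94.

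Within the family, the libraries were compared once the line difference was removed. After the mean of each line was subtracted from log2 CPM, CAV1 and CAV2 had a Pearson r of 0.83 over the 12 libraries, CAV1 and CAVIN2 0.80, and CAVIN1 and CAVIN3 0.88, against 0.35 for CAVIN1 and CAVIN2. The pairs CAV1 and CAVIN3 (0.63), CAV1 and CAVIN1 (0.62), CAV2 and CAVIN1 (0.59) and CAV2 and CAVIN2 (0.67) lay between. So did CAVIN2 and CAVIN3 (0.50) and CAV2 and CAVIN3 (0.47). These values are descriptions: the libraries share groups and depth, and the HCC1806 difference on which the genes were selected stays in them. CAVIN2 and CAVIN3 were at or near 0 counts in MDA-MB-468. Values of r with either gene thus rest mainly on the 6 HCC1806 libraries, here and in the lists of most alike genes below. Over the 6 MDA-MB-468 libraries alone, where no fall was seen, r was 0.90 for CAV1 and CAV2 and 0.86 for CAV2 and CAVIN1. In HCC1806 CAVIN1 and CAVIN3 reached 0.95.

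By the same measure, of 15917 other genes averaging 50 counts or more (MYOF is also in the YAP and TAZ list) those most like CAV1 were INHBB (0.97), B4GALT1 (0.97), MYOF (0.94), MRPL11 (0.94) and EZR (0.93). The genes most like CAV2 included KDM1A and TMEM106C (0.95 each). CAVIN1 was nearest to CSRP1 and NCL (0.97) and SCD5 (0.96), CAVIN2 to SKP2 (0.93), METTL9 (0.92) and the pseudogene RPS2P46 (0.92), and CAVIN3 to MCOLN2 (0.97), FH (0.96) and CHST14 (0.96). CAV2 ranked 240 in the list of CAV1 and CAV1 ranked 137 in that of CAVIN2, while CAVIN1 ranked 146 in that of CAVIN3. Other members ranked far lower: CAVIN3 was 1773 and CAVIN1 1843 in the list of CAV1. CAVIN3 was 3684 in that of CAV2, and CAVIN2 was 5428 in that of CAVIN1.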

How the data were processed

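The authors deposited a table of raw read counts for Ensembl genes in 12 libraries, as whole numbers that had not been normalized. Trimmomatic 0.36, STAR 2.5.2b and featureCounts of Subread 1.5.2 with GRCh38 are named, per the submitters' processing notes; strand setting and annotation release are not given in the sources used here. Coordinates, exon lengths and gene types came from GENCODE 29, promoter windows from RefSeq (GRCh38.p14).

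One edgeR 4.0.16 quasi-likelihood model (glmQLFit, glmQLFTest, two-sided; R 4.3.3) with 1 coefficient per group was fitted to all 12 libraries after TMM scaling. filterByExpr left 27029 genes of 44375 with a count; Benjamini-Hochberg adjustment ran over all of these, and an adjusted p under 0.05 was a call. CPM are TMM-scaled. Correlations used log2 CPM with a prior count of 2. A group's floor was 3 counts; floors and intervals (95%) cover counting error only. The fit was tested on simulated data. Replicates differed beyond sampling noise, so none was merged.

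The 5 genes and all lists were chosen with earlier results of these data known. The text names the 5 genes, PRKRA, up to 4 genes with the smallest adjusted p of each list and line, the 3 nearest genes on each side and the genes most alike; the results of 2 genes named by this rule are not reported here. Genes named for a line difference in the machinery list, and the epithelial markers, were picked after their values were seen.

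Same-numbered control and depleted libraries, numbered in the sample titles, had r of deviations of 0.48, 0.29 and 0.15 in HCC1806. Control 2 with depleted 3, which do not share a number, gave 0.35. In MDA-MB-468 the same-numbered r was 0.12, 0.08 and 0.11. The labels do not say that the numbers pair libraries. The main model has no replicate block, and its p-values use no pairing. Alternatives were DESeq2 1.42.0, RLE factors, library size only, no filter, a mean of at least 50 counts, each line alone, the replicate block and leaving out each library. Counts of called members and list genes under these were added after seeing the data. Figures were made in matplotlib 3.10.9.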

Additional observations from a re-analysis of the deposited data

Results flagged for a closer look

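The change of CAV1 with sgPACT-2 differed between the lines by 0.89 on the log2 scale (MDA-MB-468 minus HCC1806). CAV1 was lower in 3 of 3 depleted HCC1806 libraries than in any control. CAV1 had been selected on this value, so it is given with no test.

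The change of FYN with sgPACT-2 differed by -1.72 (adjusted p 0.0178 by edgeR): FYN rose in HCC1806 and its change in MDA-MB-468 did not pass the test.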

How the results depend on the processing

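Counts of called genes moved with the processing, and so did some values of the 5 genes. In HCC1806 672 genes were called in the 12-library model, 1351 with no filter, 1245 with DESeq2, 74 with the line alone, and 301 to 1792 when 1 library was left out. In MDA-MB-468 46 became 143, 113, 323 and 19 to 98. The 33 genes with a different effect became 275 with no filter, 178 with DESeq2 and 9 to 168. With a mean of at least 50 counts, 13022 genes (control guides) and 12993 (sgPACT-2) differed between the lines. With the replicate block the counts were 1947 in HCC1806, 102 in MDA-MB-468 and 271 for the difference; CAV1, CAV2 and CAVIN2, chosen on that contrast, were called in HCC1806 as without it.

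CAV2 between the lines with sgPACT-2 changed from -0.04 to 0.29 by library size only and 0.30 at a mean of 50 counts, and to -0.15 to 0.057 on leaving out a library. CAVIN1 changed from 0.23 to 0.55 and 0.57, and to -0.16 to 0.36. Leaving out a library put CAVIN1 with control guides at 0.37 to 0.67, its difference of effects at 0.18 to 0.70, and the sgPACT-2 values in MDA-MB-468 at -0.016 to 0.19 for CAV2 and -0.062 to 0.15 for CAVIN1. The causes were not tested, other than that fewer samples or genes entered some fits. With library size only, CAV1 was the 1 member called lower in HCC1806, where 793 genes were called in either direction. The range over leaving out a library was -0.82 to -0.65 for CAV1 and -1.26 to -0.95 for CAVIN2. CAVIN2 rests on 75 to 236 counts a library, and 0 to 1 counts in MDA-MB-468 leave a fall there undetectable at this depth.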
